A study of Oryza sativa with 6 samples.

Results

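The genes described here are nuclear genes for light harvesting and the photosystems of rice (Oryza sativa), measured by RNA sequencing in leaves. They comprise 37 of the 55986 gene models in the deposited count table. They were chosen by locus identifier, with earlier results of these data known. The list holds 8 LHCB, 6 LHCA and 2 PSBS genes, 5 genes of other photosystem II subunits, 9 genes of photosystem I subunits, and 7 genes for plastocyanin, ferredoxin, ferredoxin-NADP reductase, chloroplast ATP synthase and the cytochrome b6-f complex. The family names come with that list of identifiers. The deposited tables give identifiers only, and 0 of the 37 were found in a RefSeq table of 39387 rice genes. Of the 37 genes, 33 had enough counts to be tested and 4 had 0 counts in every library. Balilla-4x is an artificial tetraploid (2n = 48) made by chromosome doubling of Balilla-2x, a diploid japonica variety (2n = 24) from Italy with a low rate of seed set. Both lines were sampled as leaves of 4-week-old plants from a paddy field in Shanghai under the treatment label "normal", with 3 libraries per line. The labels name 1 tetraploid line. They do not state that each library is a different plant, and the p-values therefore cover the spread among the libraries of a line, part or all of which may be technical.

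LHCB and LHCA proteins bind chlorophyll a and b and form the antennae that pass absorbed light energy to photosystem II and photosystem I. Photosystem II splits water and releases oxygen, and electrons then pass through the cytochrome b6-f complex and plastocyanin to photosystem I, and on through ferredoxin and ferredoxin-NADP reductase to NADPH. The proton gradient built on the way drives the chloroplast ATP synthase. The reaction centre proteins themselves are encoded in the chloroplast genome, while the antenna proteins and many peripheral subunits are encoded in the nucleus and are among the most abundant transcripts of green leaves.

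Of 13 tested antenna genes (LHCB and LHCA), 11 were higher in the tetraploid, against 12.4% of all tested genes. Of 8 tested photosystem I genes 5 were higher, and of 7 genes for electron carriers and the ATP synthase 1 was. Of those 11 antenna calls, 6 held under all 14 alternative settings tried. How many of all called genes held under every setting was not counted, so this has no background to be set against. Of the 33 tested genes, 20 differed between the lines (edgeR quasi-likelihood test, adjusted p under 0.05), where 26.1% of all 20976 tested genes did. Of these, 18 were higher in Balilla-4x, against 12.4% of all tested genes, and 2 were lower, against 13.7%. Most of these genes are abundant, and 31 of the 33 lay in the highest of 5 equal classes of tested genes by mean expression, in which 9.06% of genes were higher in Balilla-4x and 23.0% were lower. The median log2 fold change, Balilla-4x over Balilla-2x, was 0.45 over the 33 genes, 0.01 over all tested genes and -0.11 over that highest class. The lines did not overlap in CPM, counts scaled to library size, for 24 of the 33 genes (72.7%), and for 44.3% of all tested genes. Because the list was chosen with earlier results of these data known, these figures only describe it, and no test over the list was made. In leaf samples, fewer cells of a type and less RNA per cell cannot be told apart. Single libraries moved the count of 20, which became 12 without Balilla-4x replicate 3, 12 without Balilla-2x replicate 3 and 13 without Balilla-2x replicate 1. The share called among all tested genes was also lower in these fits, at 15.4%, 15.2% and 19.9% in the same order.

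**Figure D1:**
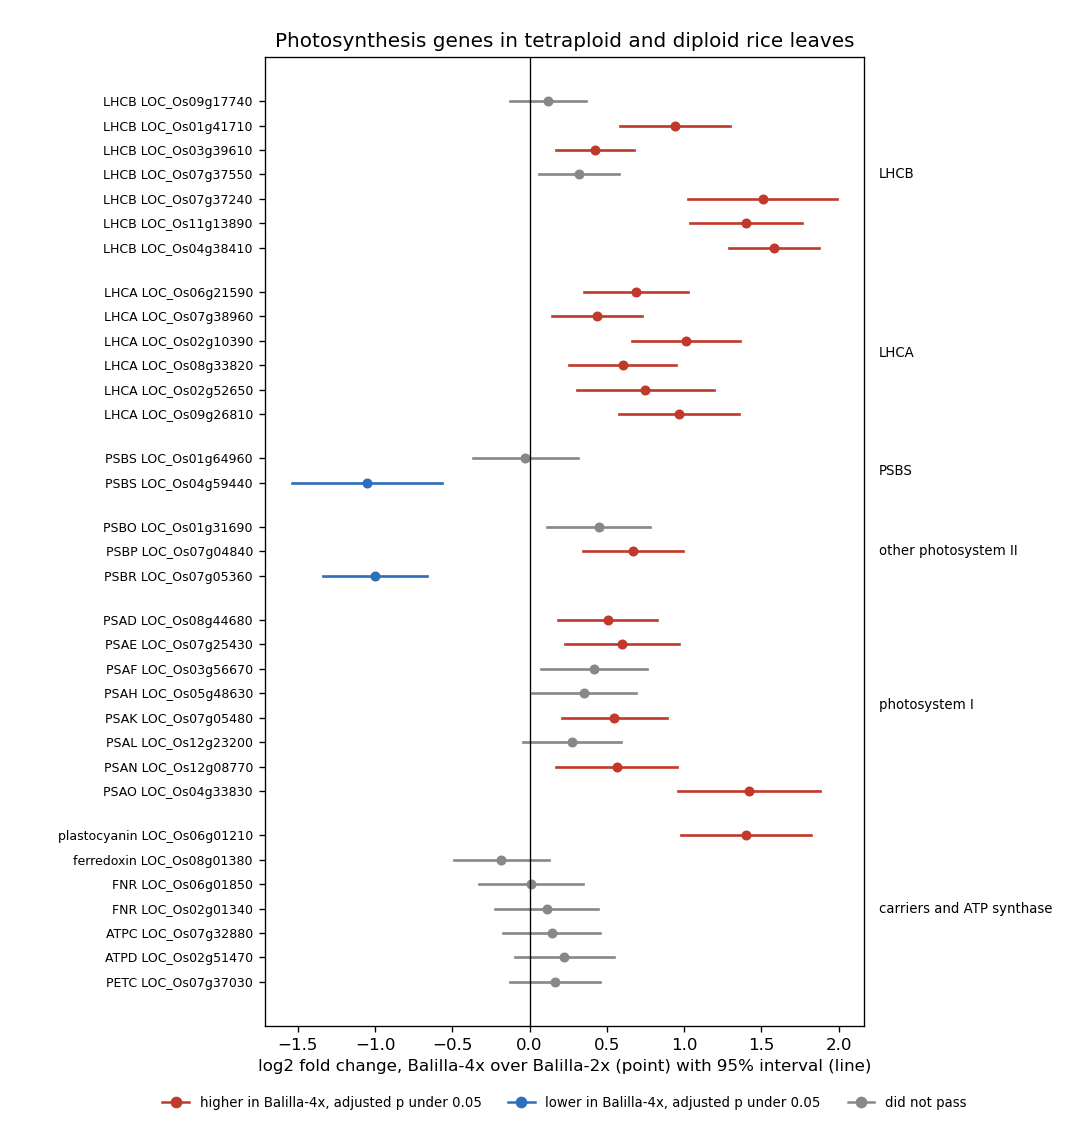
Log2 fold change of the 33 tested genes, Balilla-4x over Balilla-2x, from edgeR on 3 libraries per line, with lines for the 95% interval. All 6 LHCA genes lie to the right of 0 in red, 1 PSBS gene and PSBR lie near -1 in blue, and 6 of the 7 genes for carriers and the ATP synthase are grey.

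Library totals were 16738447 to 17078688 counts in Balilla-4x and 17147985 to 18106962 in Balilla-2x. The 37 genes took 3.09%, 3.33% and 3.80% of all counts in Balilla-4x replicates 1, 2 and 3, against 2.34%, 2.39% and 1.99% in Balilla-2x replicates 1, 2 and 3. The mean share was thus 1.52 times as high in the tetraploid (3.41% ± 0.362 in Balilla-4x, against 2.24% ± 0.217 in Balilla-2x, SD, n = 3 each). Replicate 3 stood at the outer end of both lines. In Balilla-4x it was the highest library for 27 of the 33 genes, and in Balilla-2x it was the lowest for 32. The median deviation from a gene's mean over all 6 libraries was 0.46 (log2 CPM) in Balilla-4x replicate 3, against 0.07 and 0.17 in replicates 1 and 2, and -0.37 in Balilla-2x replicate 3, against -0.19 and -0.13 in replicates 1 and 2. Over all tested genes the same median lay between 0.0037 and 0.0142 in every library, a value that the scaling of libraries keeps small. Over the highest class by mean expression it was -0.0436, -0.0636 and -0.0556 in Balilla-4x replicates 1, 2 and 3. In Balilla-2x replicates 1, 2 and 3 it was 0.0566, 0.0618 and 0.0550. Without replicate 3 of both lines, a check added after these values were seen, 10 genes differed (8 higher, 2 lower in Balilla-4x) and the median log2 fold change was 0.31, while 7.82% of all tested genes differed.

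**Figure D2:**
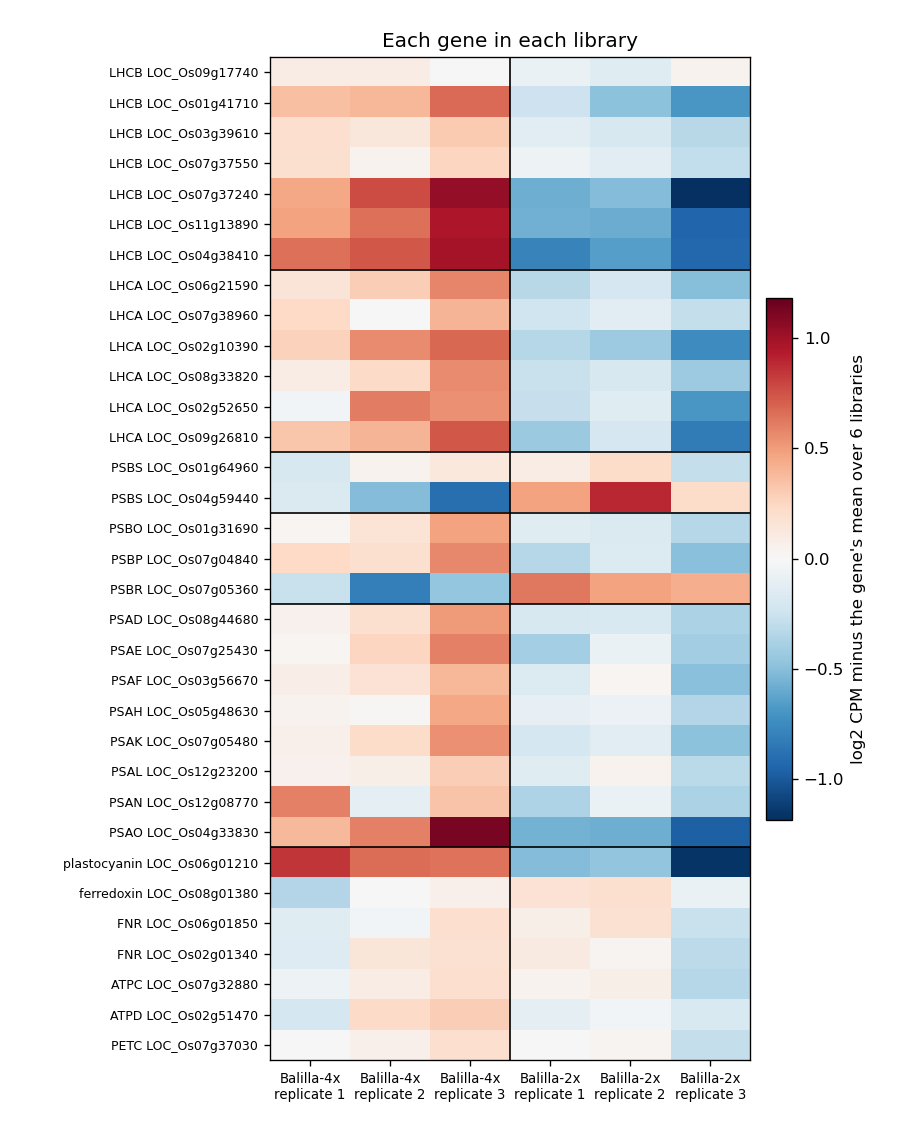
Log2 CPM of each tested gene in each library, minus the gene's mean over the 6 libraries, with Balilla-4x in the 3 left columns and Balilla-2x in the 3 right ones. Most antenna and photosystem I rows are red on the left and blue on the right, with the strongest colours in replicate 3 of each line, and the rows of PSBR and the PSBS gene LOC_Os04g59440 run the other way.

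LHCB genes encode the antenna proteins of photosystem II, both the abundant trimeric ones and the minor ones that sit next to the core. Of 7 tested LHCB genes, 5 rose in Balilla-4x and 0 fell, and their log2 fold changes ran from 0.12 to 1.58. Levels are given in FPKM as deposited, counts scaled to gene length and library total, which allows levels of different genes to be set side by side, while fold changes come from the counts. LOC_Os04g38410 had 305, 329 and 379 FPKM in the Balilla-4x libraries, against 107, 119 and 98.6 FPKM in the Balilla-2x libraries. All Balilla-4x libraries were thus well above all Balilla-2x libraries, 2.99-fold higher on the counts (95% interval 2.45 to 3.66, edgeR adjusted p = 0.000114). LOC_Os07g37240 had 1239, 1566 and 1823 FPKM in the Balilla-4x libraries, against 576, 605 and 382 FPKM in the Balilla-2x libraries. It was 2.84-fold higher (95% interval 2.04 to 3.97, edgeR adjusted p = 0.00166). The lines were far apart, and replicate 3 of each line was at the outer end. LOC_Os11g13890 had 307, 351 and 422 FPKM in the Balilla-4x libraries, against 142, 140 and 111 FPKM in the Balilla-2x libraries, and was 2.64-fold higher (95% interval 2.05 to 3.39, edgeR adjusted p = 0.000637). Those 3 genes had the largest folds of the LHCB group.

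The most abundant LHCB gene, LOC_Os01g41710, had 2916, 3040.1 and 3565 FPKM in the Balilla-4x libraries, against 1832, 1565 and 1366 FPKM in the Balilla-2x libraries. It rose by a log2 fold change of 0.94 (SE 0.16, edgeR adjusted p = 0.00365), and the lowest Balilla-4x library was above the highest Balilla-2x library. LOC_Os03g39610 rose less, by 0.42 (SE 0.11, edgeR adjusted p = 0.0243), at 639 ± 28.9 FPKM in Balilla-4x and 457 ± 30.2 FPKM in Balilla-2x (SD, n = 3 each). Its call was lost when replicate 2 or 3 of either line was left out (edgeR adjusted p of 0.0543 to 0.0907). LOC_Os07g37550 did not pass (log2 fold change 0.32, SE 0.11, edgeR adjusted p = 0.0678), although its lines did not overlap. LOC_Os09g17740 had 914, 929.8 and 845 FPKM in the Balilla-4x libraries, against 776, 745 and 855 FPKM in the Balilla-2x libraries. Its lines overlapped, and the 95% interval of the fold, 0.915 to 1.29, leaves no room for a change as large as that of the 4 LHCB genes with the largest folds. Members of the LHCB family can be similar in sequence, and how reads shared between copies were counted is not given in the sources used here, so the split between single genes is uncertain.

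LHCA genes encode the antenna of photosystem I. All 6 were tested and all 6 rose in Balilla-4x, by log2 fold changes of 0.44 to 1.01. LOC_Os02g10390 had 878, 1089 and 1143 FPKM in the Balilla-4x libraries, against 546, 517 and 416 FPKM in the Balilla-2x libraries. This was the largest fold of the group, 2.02 (95% interval 1.58 to 2.57, edgeR adjusted p = 0.00247), with no overlap. LOC_Os09g26810 had 87.4, 93.5 and 114 FPKM in the Balilla-4x libraries, against 49.0, 58.2 and 37.8 FPKM in the Balilla-2x libraries. It rose by 0.97 on the log2 scale (SE 0.17, edgeR adjusted p = 0.0048). Its level was low beside most LHCA genes, though it lay in the highest class of all tested genes by mean expression. LOC_Os06g21590 had 1538, 1719 and 2025 FPKM in the Balilla-4x libraries, against 1046, 1159 and 941 FPKM in the Balilla-2x libraries, a rise of 0.69 (SE 0.15, edgeR adjusted p = 0.0108).

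LOC_Os08g33820, the LHCA gene with the highest level, had 1718, 1920.3 and 2345 FPKM in the Balilla-4x libraries, against 1281, 1357 and 1152 FPKM in the Balilla-2x libraries. It was 1.52-fold higher (95% interval 1.20 to 1.93, edgeR adjusted p = 0.0207). LOC_Os02g52650 was the LHCA gene with the lowest level, with 25.1, 39.6 and 36.7 FPKM in the Balilla-4x libraries, against 20.3, 22.3 and 15.3 FPKM in the Balilla-2x libraries. It rose by 0.75 (SE 0.20, edgeR adjusted p = 0.024). LOC_Os07g38960 had the smallest fold, with 582, 504 and 642 FPKM in the Balilla-4x libraries, against 399.7, 434 and 393 FPKM in the Balilla-2x libraries, a log2 fold change of 0.44 (SE 0.13, edgeR adjusted p = 0.0359). None of these 3 genes overlapped between the lines, but each lost its call when certain libraries were left out. Without Balilla-4x replicate 3 or Balilla-2x replicate 1 or 3 all 3 missed the threshold. Without Balilla-4x replicate 2, LOC_Os08g33820 and LOC_Os02g52650 missed it, and without Balilla-2x replicate 2, LOC_Os07g38960 did. The edgeR adjusted p in those fits was 0.0531 to 0.0761 for LOC_Os08g33820, 0.0534 to 0.0912 for LOC_Os02g52650 and 0.0680 to 0.122 for LOC_Os07g38960.

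PSBS is a photosystem II protein related to the antenna proteins that switches on the dissipation of excess light as heat. It does not harvest light, and of its 2 genes 0 rose. LOC_Os04g59440 had 27.5, 22.1 and 16.4 FPKM in the Balilla-4x libraries, against 41.2, 55.3 and 34.8 FPKM in the Balilla-2x libraries. Every Balilla-4x library was below every Balilla-2x library, and the gene fell by 1.05 on the log2 scale (SE 0.21, edgeR adjusted p = 0.00856). The more abundant gene, LOC_Os01g64960, had 306, 366 and 374 FPKM in the Balilla-4x libraries, against 356, 390.2 and 278 FPKM in the Balilla-2x libraries. The lines overlapped, with a fold of 0.98 and a 95% interval of 0.774 to 1.24 (edgeR adjusted p = 0.907). It made up most of the PSBS transcripts in both lines, so the summed PSBS level was 371 ± 32.3 FPKM in Balilla-4x and 385 ± 67.2 FPKM in Balilla-2x (SD, n = 3 each), and the lines overlapped.

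Of the other photosystem II genes, PSBO and PSBP encode extrinsic proteins that stabilise the manganese cluster where water is split. PSBR encodes a small subunit that in Arabidopsis helps the PSBP protein bind. The 3 tested genes moved apart, with 1 higher, 1 lower and 1 that did not pass. PSBP (LOC_Os07g04840) rose by 0.67 (log2, SE 0.14, edgeR adjusted p = 0.0101), at 1012 ± 134 FPKM in Balilla-4x and 611 ± 70.7 FPKM in Balilla-2x (SD, n = 3 each). PSBR (LOC_Os07g05360) had 201, 139.9 and 172 FPKM in the Balilla-4x libraries, against 354, 321 and 313 FPKM in the Balilla-2x libraries. It fell by 1.00 on the log2 scale (SE 0.15, edgeR adjusted p = 0.00213) with no overlap. PSBO (LOC_Os01g31690) was the most abundant of the group, with 1597, 1786 and 2154 FPKM in the Balilla-4x libraries, against 1357, 1341 and 1203 FPKM in the Balilla-2x libraries. Its lines did not overlap, but with a log2 fold change of 0.45 (SE 0.15) it did not pass (edgeR adjusted p = 0.0526), though it did in 4 of 14 alternatives. Per library, PSBR stood at 0.126, 0.0783 and 0.0800 of the PSBO level in Balilla-4x, against 0.261, 0.240 and 0.260 in Balilla-2x.

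Photosystem I genes were higher or did not pass, and 0 fell. Of 8 tested genes 5 rose, with log2 fold changes over the group of 0.27 to 1.42. PSAO (LOC_Os04g33830) encodes a small membrane subunit that in Arabidopsis lies on the side where photosystem II antenna can dock. It had 630.1, 743 and 1037 FPKM in the Balilla-4x libraries, against 314, 312 and 239 FPKM in the Balilla-2x libraries, and was 2.68-fold higher (95% interval 1.95 to 3.68, edgeR adjusted p = 0.00174). The lines were far apart, with Balilla-4x replicate 3 the highest library. PSAH and PSAL, which encode subunits of the same side, did not pass, with edgeR adjusted p = 0.116 and 0.176. PSAL (LOC_Os12g23200), the most abundant gene of the group, had 1779, 1839 and 2075 FPKM in the Balilla-4x libraries, against 1489.5, 1704 and 1326 FPKM in the Balilla-2x libraries, with no overlap. The 95% interval of its fold was 0.973 to 1.51, so a change as large as that of PSAO lay outside it.

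PSAD and PSAE encode the stromal subunits at which ferredoxin docks. PSAD (LOC_Os08g44680) rose by 0.50 (log2, SE 0.14, edgeR adjusted p = 0.0307) and PSAE (LOC_Os07g25430) by 0.60 (SE 0.16, edgeR adjusted p = 0.0277). PSAK (LOC_Os07g05480), for a membrane subunit near the antenna, rose by 0.55 (SE 0.15, edgeR adjusted p = 0.0279). PSAN (LOC_Os12g08770), for a subunit on the lumen side, rose by 0.56 (SE 0.17, edgeR adjusted p = 0.0431) and was the 1 tested photosystem I gene whose lines overlapped in CPM. PSAF (LOC_Os03g56670), for the subunit at which plastocyanin docks, did not pass (log2 fold change 0.42, SE 0.15, edgeR adjusted p = 0.0726). The calls of PSAD, PSAE, PSAK and PSAN were all lost when Balilla-4x replicate 3, Balilla-2x replicate 1 or Balilla-2x replicate 3 was left out. Without Balilla-4x replicate 2 those of PSAD, PSAE and PSAK were lost, without Balilla-2x replicate 2 those of PSAD and PSAN, and without Balilla-4x replicate 1 that of PSAN. Over these fits the edgeR adjusted p was 0.0663 to 0.107 for PSAD, 0.0682 to 0.0984 for PSAE, 0.0630 to 0.1001 for PSAK and 0.0515 to 0.136 for PSAN. PSAO kept its call in all 6 fits with 1 library left out (edgeR adjusted p of 0.000364 to 0.0088).

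Among the genes for electron carriers and the ATP synthase, plastocyanin rose and the rest did not pass. Plastocyanin (LOC_Os06g01210), the copper protein that carries electrons to photosystem I, had 1422, 1269.7 and 1213 FPKM in the Balilla-4x libraries, against 527, 549 and 339.96 FPKM in the Balilla-2x libraries. It was 2.65-fold higher (95% interval 1.98 to 3.54, edgeR adjusted p = 0.00128). Unlike most of these genes, its highest Balilla-4x library was replicate 1 and its lowest was replicate 3. PETC (LOC_Os07g37030), the Rieske iron-sulfur protein of the cytochrome complex, from which plastocyanin receives electrons, had 1266, 1340 and 1431 FPKM in the Balilla-4x libraries, against 1203, 1250 and 1007 FPKM in the Balilla-2x libraries. It overlapped between the lines in CPM, with a fold of 1.12 and a 95% interval of 0.915 to 1.37 (edgeR adjusted p = 0.379).

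The FNR gene LOC_Os06g01850 had the fold closest to 1 in the group, with 512, 563 and 639.8 FPKM in the Balilla-4x libraries, against 567, 617 and 454 FPKM in the Balilla-2x libraries. The lines lay across each other, and the 95% interval of the fold was 0.796 to 1.27 (edgeR adjusted p = 0.971). The other FNR gene, LOC_Os02g01340, had a fold of 1.08 (95% interval 0.857 to 1.36, edgeR adjusted p = 0.607). Ferredoxin (LOC_Os08g01380) averaged 248 ± 36.2 FPKM in Balilla-4x and 270 ± 26.4 FPKM in Balilla-2x (SD, n = 3 each), with a fold of 0.881 and a 95% interval of 0.711 to 1.09 (edgeR adjusted p = 0.351). ATPC (LOC_Os07g32880) and ATPD (LOC_Os02g51470) encode the gamma and delta subunits of the ATP synthase. Their folds were 1.10 (95% interval 0.888 to 1.37, edgeR adjusted p = 0.478) and 1.17 (95% interval 0.938 to 1.46, edgeR adjusted p = 0.267). All these intervals leave out 1.5-fold changes in either direction. The ratio of plastocyanin to ferredoxin was 6.91, 4.76 and 4.50 in the Balilla-4x libraries, against 1.87, 1.91 and 1.42 in the Balilla-2x libraries, and that of plastocyanin to PETC was 1.12, 0.948 and 0.847 in Balilla-4x, against 0.438, 0.439 and 0.338 in Balilla-2x (all in FPKM).

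**Figure D3:**
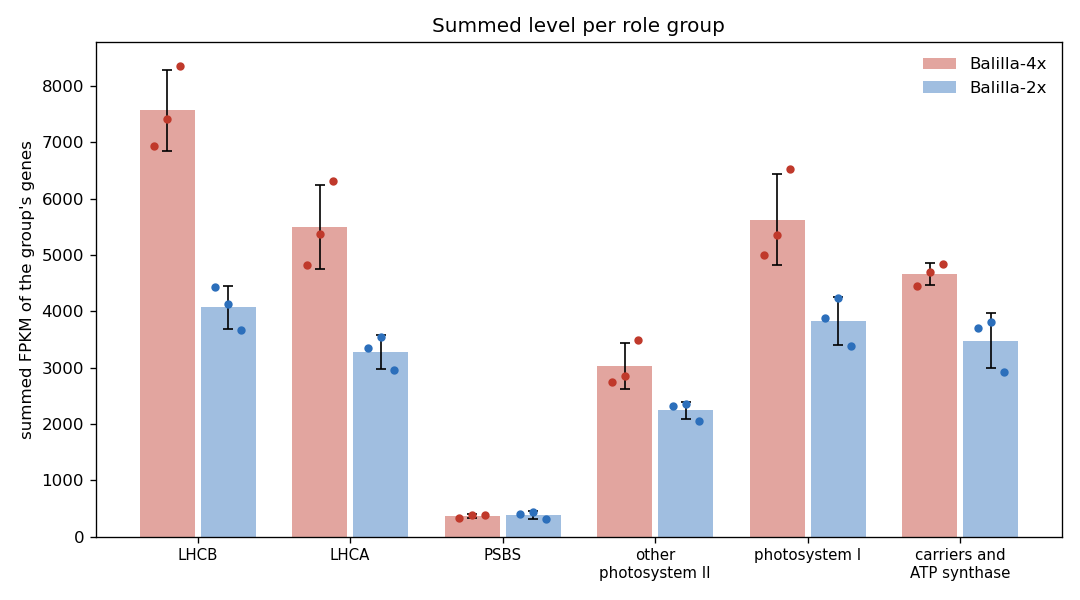
Summed FPKM of the genes in each role group, with 1 point per library, bars for the mean and error bars for the SD (n = 3 libraries per line). In every group but PSBS the Balilla-4x bar lies above that of Balilla-2x with no overlap of points, and the PSBS points of both lines overlap.

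Summed over each group, the ratio between the lines was largest for the antenna. LHCB transcripts summed to 6941, 7411 and 8354 FPKM in the Balilla-4x libraries, against 4423, 4125 and 3671 FPKM in the Balilla-2x libraries, a ratio of means of 1.86. LHCA transcripts summed to 5499 ± 748 FPKM in Balilla-4x and 3281 ± 301 FPKM in Balilla-2x (SD, n = 3 each), a ratio of 1.68. The ratio was 1.47 for photosystem I, 1.35 for the other photosystem II genes and 0.962 for PSBS. For carriers and ATP synthase it was 1.34 with plastocyanin and 1.12 without it, and without plastocyanin the lines overlapped. Antenna transcripts, LHCB and LHCA together, stood to the transcripts of the photosystem subunits as 1.52, 1.56 and 1.46 to 1 in the Balilla-4x libraries, against 1.25, 1.17 and 1.22 to 1 in the Balilla-2x libraries. This ratio did not overlap between the lines, and it compares genes within a library, so it does not depend on how libraries were scaled. PSBS stood to LHCB as 0.048, 0.0523 and 0.0468 to 1 in Balilla-4x, against 0.0898, 0.108 and 0.0852 to 1 in Balilla-2x.

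The share of each gene in the summed FPKM of its group was compared for the 33 genes, and 22 shares reached p = 0.1 in an exact permutation test (two-sided), the smallest that 3 libraries against 3 can give. After Benjamini-Hochberg adjustment over the 33 shares these stood at 0.15 (exact permutation test). With 3 libraries per line no share could pass the threshold, so this test cannot decide whether any share differed. Within LHCB, LOC_Os07g37240 made up 20.3% ± 2.12 in Balilla-4x, against 12.7% ± 2.14 in Balilla-2x, and LOC_Os09g17740 made up 11.9% ± 1.61 in Balilla-4x, against 19.6% ± 3.17 in Balilla-2x (SD, n = 3 each). The 2 genes thus changed places in the order of LHCB levels. LOC_Os01g41710 held the largest share in both lines, 41.9% ± 0.834 in Balilla-4x, against 38.9% ± 2.25 in Balilla-2x (SD, n = 3 each), and overlapped between them. In LHCB 6 of 7 shares did not overlap between the lines, and in LHCA 3 of 6. The shares of a group add up to the whole, so a larger share of any gene lowers the others and such counts are not of independent results. The share of the LHCA gene LOC_Os06g21590 was 32.0% ± 0.129 in Balilla-4x, against 31.9% ± 0.688 in Balilla-2x (SD, n = 3 each), while that of LOC_Os02g10390 was 18.9% ± 1.23 in Balilla-4x, against 15.0% ± 1.19 in Balilla-2x (SD, n = 3 each).

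In the other groups 13 of 20 shares did not overlap between the lines, and none could pass the test with 3 libraries per line. These shares are also tied to each other within a group. Of the 13, 6 were in carriers and ATP synthase, where 1 of 7 genes, plastocyanin, did not overlap in CPM. The 2 PSBS shares mirror each other and are the same result. The minor PSBS gene, LOC_Os04g59440, made up 8.25%, 5.69% and 4.21% of PSBS transcripts in the Balilla-4x libraries, against 10.4%, 12.4% and 11.1% in the Balilla-2x libraries. PSAO made up 14.1% ± 1.66 of photosystem I transcripts in Balilla-4x, against 7.51% ± 0.531 in Balilla-2x, and PSAL made up 33.9% ± 1.93 in Balilla-4x, against 39.3% ± 0.898 in Balilla-2x (SD, n = 3 each). PSAD kept a close share, 17.96% ± 0.41 in Balilla-4x, against 17.95% ± 0.872 in Balilla-2x (SD, n = 3 each). Plastocyanin made up 32.0%, 27.0% and 25.1% of its group in the Balilla-4x libraries, against 14.3%, 14.4% and 11.6% in the Balilla-2x libraries.

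**Figure D4:**
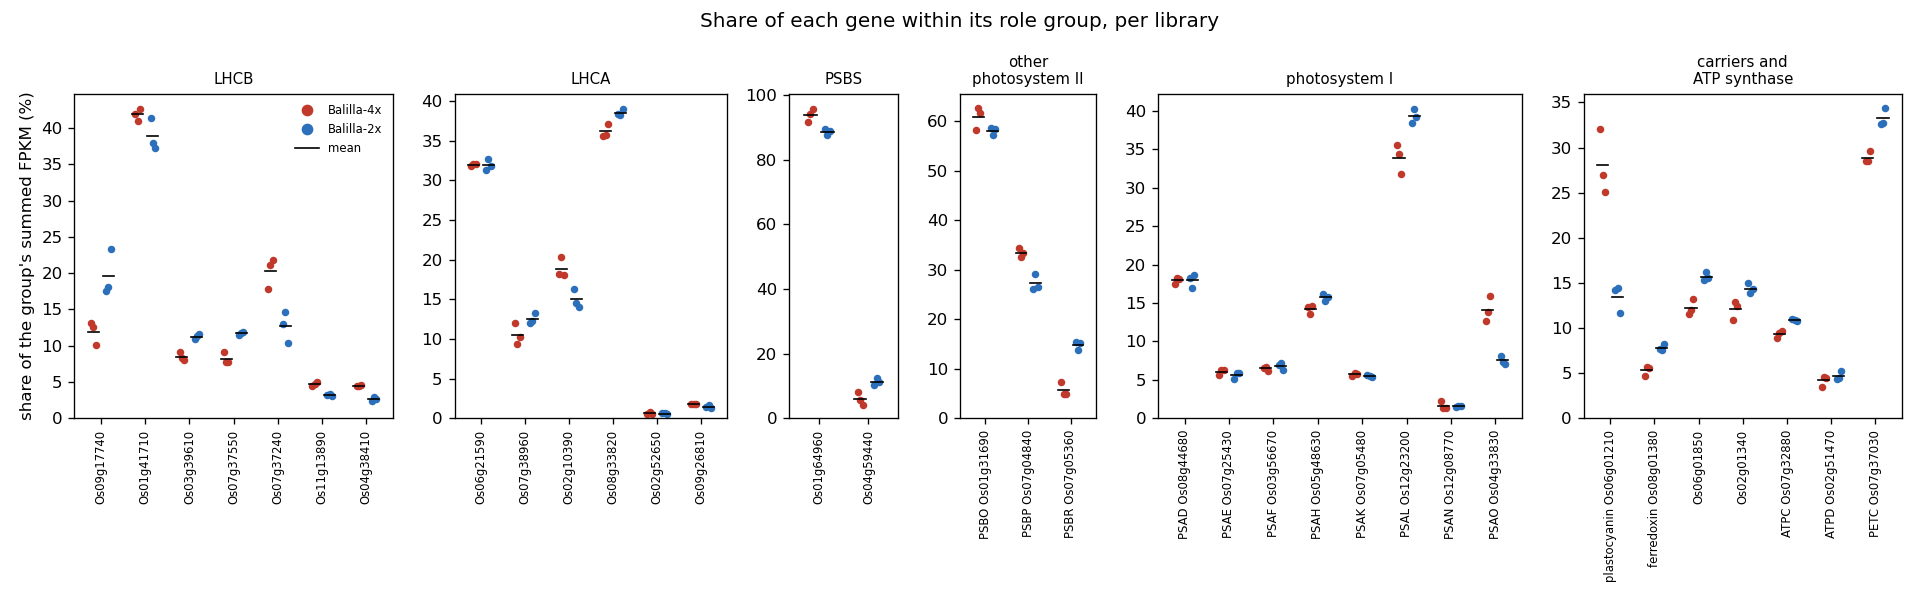
Share of each tested gene in the summed FPKM of its role group in percent, with 1 point per library and a line for the mean of 3 libraries per line. In LHCB the gene LOC_Os07g37240 has the larger share in Balilla-4x and LOC_Os09g17740 the larger share in Balilla-2x, and plastocyanin shows the widest gap in its group.

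In level per length, the LHCB gene LOC_Os01g41710 was the most abundant of the 33 in both lines, at 3174 ± 345 FPKM in Balilla-4x and 1588 ± 234 FPKM in Balilla-2x (SD, n = 3 each). In Balilla-4x it stood clear of the next genes, LHCA LOC_Os08g33820 at 1994 ± 320 FPKM, PSAL at 1897 ± 157 FPKM, PSBO at 1845 ± 283 FPKM and LHCA LOC_Os06g21590 at 1761 ± 246 FPKM (SD, n = 3), which did not differ from each other beyond their spread. In Balilla-2x it did not stand clear of PSAL, at 1507 ± 189 FPKM (SD, n = 3). Plastocyanin was 8th of the 33 in Balilla-4x and 16th in Balilla-2x, PSAO 13th in Balilla-4x and 22nd in Balilla-2x, and LHCB LOC_Os07g37240 6th in Balilla-4x and 12th in Balilla-2x. PSBR was 29th in Balilla-4x and 21st in Balilla-2x. The lowest levels were those of the PSBS gene LOC_Os04g59440 in Balilla-4x (22.0 ± 5.53 FPKM) and of the LHCA gene LOC_Os02g52650 in Balilla-2x (19.3 ± 3.60 FPKM, SD, n = 3 each).

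**Figure D5:**
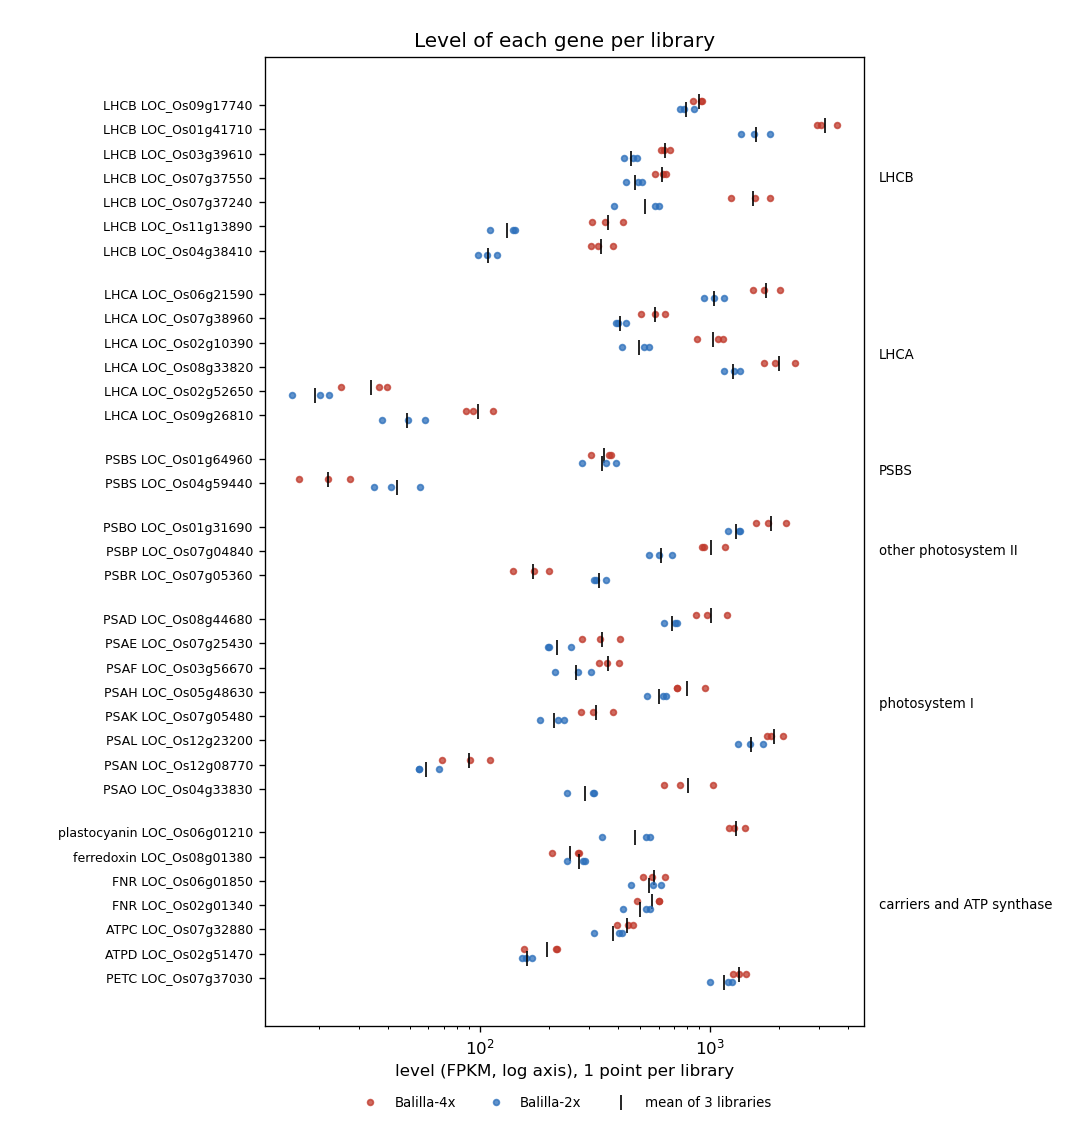
Level of each tested gene in FPKM on a log axis, with 1 point per library and a tick for the mean of 3 libraries per line. The genes span from 15.3 FPKM in a Balilla-2x library for LOC_Os02g52650 to 3565 FPKM in a Balilla-4x library for LOC_Os01g41710, and the lines lie apart for most antenna genes and overlap for both FNR genes and ATPC.

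Some genes that lie close to each other on a chromosome differed in the direction or only in the size of the change. On chromosome 7, by locus number, PSBP (LOC_Os07g04840) and PSBR (LOC_Os07g05360) are separated by 12 tested genes, and PSBR and PSAK (LOC_Os07g05480) by 6. PSBR fell between these 2 genes that rose. Also on chromosome 7, PETC (LOC_Os07g37030), LHCB LOC_Os07g37240 and LHCB LOC_Os07g37550 lie in a row with 8 and 11 tested genes between them, and had log2 fold changes of 0.16, 1.51 and 0.32, of which that of LOC_Os07g37240 passed. On chromosome 6, plastocyanin and the FNR gene LOC_Os06g01850 are separated by 35 tested genes, with log2 fold changes of 1.40 and 0.01.

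The 4 genes that could not be tested had 0 counts in all 6 libraries. They are the LHCB gene LOC_Os01g52240, PSBQ (LOC_Os07g36080), PSBY (LOC_Os08g02530) and the photosystem I gene PSAG (LOC_Os09g30340). A count of 0 allows up to 3 counts per library, or 0.17 to 0.178 CPM here. The same table lists 25000 of its 55986 gene models (44.7%) at 0 in every library. Whether reads of these 4 genes were given to other gene models was not tested, so the values say only that the table holds no reads for them, and nothing on a difference between the lines.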

How the data were processed

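RNA from leaves of Balilla-4x and Balilla-2x was sequenced from 3 libraries per line, made with Illumina's TruSeq kit per the labels' protocols. The authors deposited raw read counts per gene and FPKM per library, per the file headers. The aligner was HISAT2 2.1.0, per the submitters' processing notes. How reads were counted, on which build and annotation, and whether strand was used is not given in the sources used here. Values are relative to each library's total, so RNA per cell is not measured.

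The deposited counts were fitted with edgeR 4.0.16 (R 4.3.3). Genes kept by filterByExpr (20976, with 99.9% of counts) were scaled by TMM and tested by the two-sided quasi-likelihood test with Benjamini-Hochberg adjustment over all tested genes at 0.05. The SE came from the F statistic and the 95% interval from the gene's degrees of freedom. The test was checked on simulated counts with known changes in a small part of the genes. The simulated folds were larger than most of those found here. No library was shifted in the simulation, so the check does not cover the differences between replicates described above. Shares used deposited FPKM and exact permutation tests (scipy 1.17.1). Alternatives used limma 3.58.1 and DESeq2 1.42.0. Values per library are given for the 12 called genes with the largest folds and for those with the largest fold, smallest fold and highest level of each group. The genes, groups and lists were chosen with earlier results of these data known. A wider list of pathway genes could not be filled, since no identifier matched the RefSeq table. No marker list for other leaf cell types was used. Limits of counting (floors of 3 counts) cover counting error only.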

Additional observations from a re-analysis of the deposited data

How the results depend on the processing

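Of 20 called genes, 10 were called in all 14 alternatives: the LHCB genes LOC_Os01g41710, LOC_Os07g37240, LOC_Os11g13890 and LOC_Os04g38410, the LHCA genes LOC_Os02g10390 and LOC_Os09g26810, PSAO, plastocyanin, PSBR and the PSBS gene LOC_Os04g59440 (adjusted p at most 0.0446, edgeR, DESeq2 or limma). No called gene changed direction in them. The share of all called genes outside the list that held in all 14 was not counted. Of 13 genes not called, 4 passed in some alternatives, all upward: PSBO in 4 (lowest adjusted p 0.009, DESeq2), PSAF in 3 (0.0377, DESeq2), LOC_Os07g37550 in 2 (0.0269, DESeq2) and ATPD in 1 (0.0233, edgeR without Balilla-4x replicate 1). With limma, LOC_Os08g33820 lost its call on log2 of FPKM plus 1 and plus 0.1, and PSAD on FPKM plus 1. With other scalings, filters and tests the number called among the 33 genes was 18 to 23, while 18.2% to 26.1% of all genes in those fits were called. The median log2 fold change was then 0.45 to 0.51 over the 33 genes and 0.0089 to 0.0705 over all tested genes. With 1 library left out the number among the 33 was 12 to 22 and their median 0.36 to 0.55, while 14.2% to 30.7% of all tested genes were called (26.1% with all libraries). Without replicate 3 of both lines, added after the data were seen, the number was 10 and the median 0.31. The cause was not tested. Fewer libraries also leave fewer degrees of freedom. Replicate numbers showed no sign of pairing the libraries (correlations of same-numbered deviations across genes 0.0019, -0.0231 and -0.0436). These values do not settle whether the libraries were collected in pairs. With the replicate block 14 genes were called, and 22% of all tested genes. The calls lost were those of LOC_Os03g39610, LOC_Os07g38960, LOC_Os08g33820, PSAD, PSAK and PSAN (edgeR adjusted p 0.0546 to 0.084).

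Directions turned for 4 genes near 0 that were not called. On the log2 scale LOC_Os01g64960 stood at 0.031 with library totals, at 0.0388 (pseudocount 1) and 0.0389 (pseudocount 0.1) when limma was run on FPKM, and between -0.166 and 0.0722 with 1 library left out. Without replicate 3 of both lines LOC_Os06g01850 stood at -0.203, LOC_Os02g01340 at -0.056 and LOC_Os07g32880 at -0.0317. With 1 library left out the range was -0.117 to 0.0999 for LOC_Os06g01850 and -0.0093 to 0.208 for LOC_Os02g01340. Of 231 recomputed share differences (percentage points, Balilla-4x minus Balilla-2x), 7 turned, with ranges over single libraries left out of -0.257 to 0.426 for LOC_Os06g21590, -0.0328 to 0.076 for LOC_Os02g52650, -0.484 to 0.35 for PSAD and -0.194 to 0.269 for PSAN.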
